A study of Gallus gallus with 12 samples.

Results

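HTC cells, a chicken macrophage line, were examined after 4 h of contact with Eimeria, the protozoan parasites that cause coccidiosis in poultry. The comparison set cells given E. tenella, E. maxima or E. acervulina for that time against unstimulated HTC cells, and asked which genes the 3 species changed in common. All 12 arrays of the series entered. Each was a spotted cDNA array on which 2 RNA samples of a species were hybridised together, with Alexa555 marking the first and Alexa647 the second. For a species 4 such arrays linked the RNA of unstimulated cells and of cells stimulated for 4, 18 and 48 h in a closed loop, and least squares gave each RNA a level relative to the mean of its loop. Each time of each species had 1 RNA sample, so the 3 species served as the replicates. Of 2253 genes named on the array, the 2238 with values on all 12 arrays are described. They were tested together with 1462 rows that carry no gene name.

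Macrophages meet a microbe through pattern recognition receptors such as the Toll-like receptors, which start NF-kB signalling within minutes. The first transcripts to follow are usually those of chemokines, cytokines and feedback inhibitors, while the making of secreted proteins, the endoplasmic reticulum and the energy supply of the cell are adjusted over the next hours. In chickens macrophages are among the first cells to meet Eimeria sporozoites, and chemokines draw further leukocytes to the infected gut.

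Every value below is on the log2 scale, with base 2 assumed, and the ratio was read as Alexa555 over Alexa647. This direction is likely and not certain, because no label names the numerator. It rests on the sample titles, which name the Alexa555 RNA first, and on the induction of CC chemokines remembered from the study, so the chemokine values are no independent evidence of it. Under the other reading every sign turns, while sizes and tests stay. The labels give the unstimulated RNA 1 name across the loops. If it was 1 sample and not 3, the p-values of 4 h against unstimulated are too small. No unstimulated cells kept for 4 h were among the samples, so the parasite and the hours in culture cannot be told apart. The labels name neither the parasite stage nor its dose, nor whether the cultures were started separately, so the p-values measure the spread between these samples, which may be technical. HTC is a single line and stands for no other macrophage. Log ratios hold no absolute level, so the presence of macrophage transcripts could not be checked, and in bulk RNA a change of cell types cannot be told apart from a change of RNA per cell.

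At 4 h the RNAs of SPP1, FABP4, OSMR and 2 CC chemokine genes were higher than in unstimulated cells, as were 5 of 18 genes of protein folding in the endoplasmic reticulum and 4 of 35 RNA-binding genes. Lower were 4 of 15 genes of glycolysis and glycogen, 6 of 34 of oxidative phosphorylation and the citric acid cycle, 8 of 29 translation factor and tRNA synthetase genes and 6 of 54 ribosomal protein genes. Another 2 of the 29 translation genes rose. Of the 2238 named genes 93 rose and 137 fell (limma with Benjamini-Hochberg adjustment over all 3700 features, threshold 0.05). Among all features tested 10.4% passed, 4.51% on the higher and 5.89% on the lower side. With each array centred on its median, 142 named genes passed on the higher side and 112 on the lower, so which side holds more depends on the centring. The calls needed all 3 species. Without E. tenella 76 features passed, without E. maxima 1 did, which was SPP1, and without E. acervulina 0 did, against 385 with all 3 species. At an unadjusted p under 0.05 there were 948, 687 and 718 features in these fits.

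The changes were mostly small. The median size among the 230 called genes was 0.65, and 0.21 among all features. At least 2-fold changes were found for 17 genes that rose and 13 that fell. In 229 of the 230 the change had the same sign in all 3 species, TLR2A being the exception. All named genes together did so in 57.6%. The 4 h and unstimulated levels did not overlap for 43% of all features and for 229 of the 230 called genes. The call used the same levels, so the lack of overlap is no separate support for a called gene. By species the median change of the 93 genes that rose was 0.53 with E. tenella, 0.76 with E. maxima and 0.77 with E. acervulina, and that of the 137 that fell was -0.52, -0.70 and -0.66. Over all features the 4 h changes also spread least with E. tenella. Their SD was 0.39, against 0.51 with E. maxima and 0.48 with E. acervulina, so this is not particular to the called genes. E. tenella gave the change farthest from 0 for 12 of the genes that rose and 5 of those that fell. These calls used the same changes, so the split is a description.

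**Figure D1:**
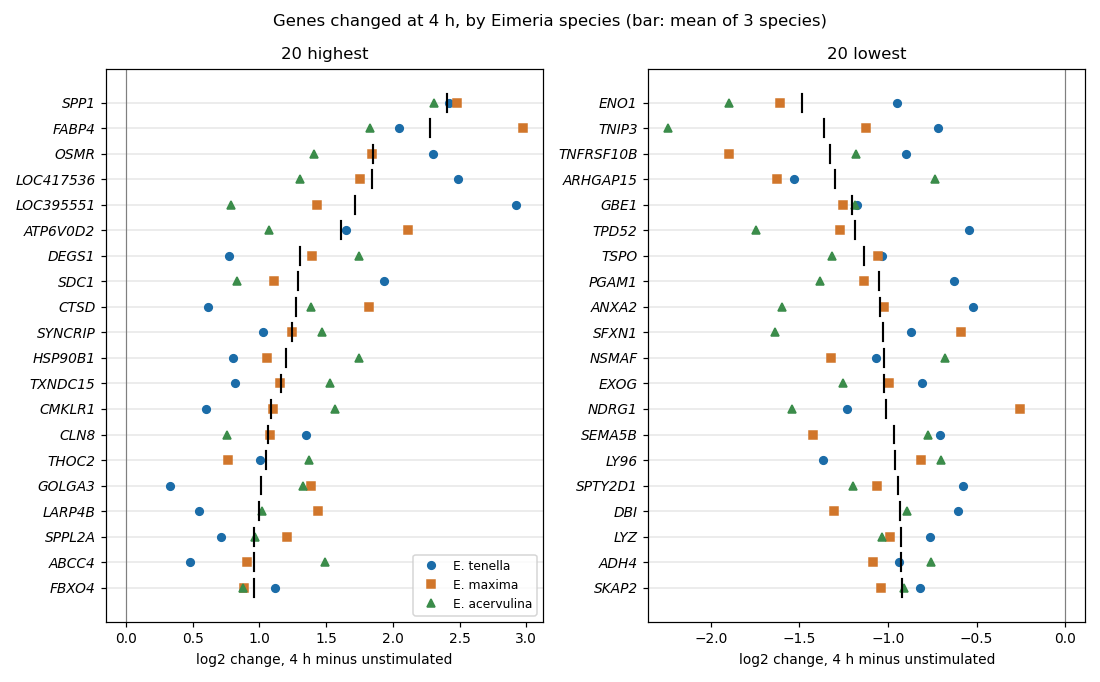
Log2 change at 4 h minus unstimulated (x axis) for the 20 named genes with the highest and the 20 with the lowest mean among those that passed and had 1 sign in all species. Each point is 1 species and the black bar is the mean of 3 species. SPP1 lies between 2.31 and 2.48 in all 3 species, while LOC395551 runs from 0.79 with E. acervulina to 2.92 with E. tenella.

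SPP1, which encodes the secreted phosphoprotein osteopontin, had the highest mean change. Its level at 4 h was 1.60 with E. tenella, 1.97 with E. maxima and 1.57 with E. acervulina, against -0.82, -0.51 and -0.74 in the matching unstimulated RNA. All 4 h levels lay above all unstimulated levels, and the change was 2.40 ± 0.09 (SD, n = 3, limma adjusted p = 0.0024). Here and below, the test pools the spread of a gene over all times and moderates it across features. The p-value therefore does not rest on the printed SD of the 3 changes alone. The array holds 3 clones of SPP1, each spotted 3 times, and their changes were 2.45, 2.40 and 2.42. SPP1 was also the only gene whose 4 h level passed against 18 h.

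The genes whose 12 levels most resembled those of SPP1 were FBXO4, LEMD3, OSMR, ARCN1 and RASSF2, with Pearson correlations of 0.95, 0.94, 0.94, 0.94 and 0.94 over 12 levels that share arrays within a loop. FBXO4 encodes a substrate-binding part of a ubiquitin ligase, and it rose by 0.96 ± 0.13 (limma adjusted p = 0.0096). OSMR, the receptor subunit for the cytokine oncostatin M, had levels of 1.52, 1.44 and 0.81 at 4 h with E. tenella, E. maxima and E. acervulina, against -0.78, -0.40 and -0.60 unstimulated. The groups did not overlap, and the change was 1.85 ± 0.44 (limma adjusted p = 0.015). LEMD3, an inner nuclear membrane protein, changed by 0.80 ± 0.17, ARCN1, a subunit of the COPI vesicle coat, by 0.46 ± 0.13 and RASSF2, a Ras-binding protein, by 0.53 ± 0.10. All of these passed the test. They were chosen on levels that include those at 4 h and unstimulated, where SPP1 differs strongly. Passing was thus favoured by the choice and is no separate result.

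Chemokines are small secreted proteins that attract leukocytes, and 2 of 11 measured passed, both of them CC chemokines on the higher side. The list median was 0.52 against -0.03 for all features. LOC417536 had 4 h levels of 1.58, 1.41 and 0.75 with E. tenella, E. maxima and E. acervulina, against -0.90, -0.34 and -0.56 unstimulated. These groups lay apart, the change was 1.85 ± 0.60 (limma adjusted p = 0.026), and the 2 clones gave 2.23 and 1.46. LOC395551, for which RefSeq lists the synonym MIP-1beta, had 1.18, 1.10 and 0.42 at 4 h, against -1.74, -0.33 and -0.37 unstimulated. Its change of 1.71 ± 1.1 lay at the threshold (limma adjusted p = 0.0495) and was largest with E. tenella. With the median of rows in place of the mean, and with robust variance moderation, 1 chemokine passed and not 2. The same held with arrays scaled to one spread, with 3 of 4 arrays per loop admitted and with the spread of the 3 differences alone. On leaving out any species 0 passed.

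The other 9 chemokine genes did not pass. IL8L1, a CXC chemokine gene that RefSeq also lists as K60, changed by 2.31 with E. tenella, 0.73 with E. maxima and 0.20 with E. acervulina. K123 had a mean change of 1.01, CCL5 of 0.61, CCL20 of 0.52 and CCL4, for which RefSeq lists the synonym K203, of 0.37. XCL1 had -0.28. Thus 8 of the 11 had a positive mean change.

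Receptor and signalling genes gave calls in small numbers, so no direction is read for these lists. Of all features 4.51% passed on the higher and 5.89% on the lower side. Of 26 cytokine and cytokine receptor genes OSMR and TGFB3 passed, the second of these a growth factor of the TGF-beta family that rose by 0.69 ± 0.28. IL1B, which encodes the inflammatory cytokine interleukin 1 beta, had a change of 0.21, and IL6 had -0.29. Of 23 genes of pattern recognition and NF-kB signalling 1 rose and 3 fell, with a list median of 0.03. TBK1, a kinase upstream of interferon regulatory factors, rose by 0.81 ± 0.44. MAP3K8, a kinase that couples Toll-like receptors to ERK, fell by 0.56.

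LY96 encodes MD-2, the protein that lets TLR4 bind lipopolysaccharide in mammals. Its 4 h levels were -0.68, -0.59 and -0.34 with E. tenella, E. maxima and E. acervulina, against 0.69, 0.22 and 0.36 unstimulated. The groups did not overlap, and LY96 fell by 0.96, with an SD of 0.36 (limma adjusted p = 0.0142). TLR2A, one of the chicken Toll-like receptor 2 genes, had -0.37, -0.33 and 0.32 at 4 h, against 0.86, 0.88 and 0.30 unstimulated. It was lower at 4 h with E. tenella and E. maxima, and with E. acervulina the change was 0.02 (limma adjusted p = 0.0418 for the common change). Whether the species differ for TLR2A was not tested.

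Of 15 feedback inhibitors of NF-kB and cytokine signalling, PTPN1, a tyrosine phosphatase, rose by 0.87 ± 0.37, while TNIP3 and the ERK phosphatase gene DUSP6 fell. TNIP3, which binds the NF-kB inhibitor A20, had 4 h levels of 0.14, -0.44 and -1.04 with E. tenella, E. maxima and E. acervulina, against 0.86, 0.69 and 1.20 unstimulated. Its change was -1.36 ± 0.79 (limma adjusted p = 0.0365), and DUSP6 changed by -0.51 ± 0.10. TNFAIP3, which encodes A20, had -0.29 and NFKBIA, the main inhibitor of NF-kB, had -0.03, neither past the test. None of 15 genes of the interferon response passed, with a median of -0.08.

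Transcription factors gave 1 gene on each side out of 21. CEBPB, a factor of macrophage activation, had levels of 0.21, 0.12 and 0.29 at 4 h, against -0.23, -0.48 and -0.30 unstimulated, and rose by 0.54 ± 0.09 (limma adjusted p = 0.0408). CREM, which modulates transcription in response to cyclic AMP, had -0.59, -0.64 and -0.78 at 4 h, against 0.07, -0.14 and 0.38 unstimulated. It fell by 0.77, with an SD of 0.34 (limma adjusted p = 0.0236). Neither gene's groups overlapped.

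Genes of protein folding in the endoplasmic reticulum gave 5 rises and 0 falls among 18 measured, with a list median of 0.27. The median was 0.14 with E. tenella, 0.18 with E. maxima and 0.43 with E. acervulina. HSP90B1, the chaperone GRP94, had 4 h levels of 0.66, 0.78 and 1.22 with E. tenella, E. maxima and E. acervulina, against -0.14, -0.28 and -0.53 unstimulated. The groups lay apart, and the change was 1.20 ± 0.49 (limma adjusted p = 0.0203). HSPA5, the chaperone BiP, had 0.34, 0.53 and 0.52 at 4 h, against -0.45, -0.52 and -0.17 unstimulated. It rose by 0.84 ± 0.18 (limma adjusted p = 0.0172), and its 2 clones gave 0.97 and 0.72.

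The other 3 were TXNDC15, a thioredoxin domain protein, at 1.16 ± 0.36, UGGT1, which marks misfolded glycoproteins for refolding, at 0.88 ± 0.42, and EDEM1, which directs them to degradation, at 0.64 ± 0.30. XBP1, which drives transcription when unfolded proteins accumulate, had 0.22, ATF4 had -0.29 and HERPUD1 had -0.33. The disulfide isomerase gene P4HB had -0.28 and PDIA6 had 0.34. None of these 5 passed. For UGGT1 and EDEM1 the 3 arrays that did not hold both RNAs gave a change of the other sign in at least 1 species.

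In the secretory pathway 3 of 23 genes rose and 0 fell, with a median of 0.08. Split by species, this median was 0.04 with E. tenella, -0.06 with E. maxima and 0.20 with E. acervulina. SEC61A1, the channel through which proteins enter the endoplasmic reticulum, had 0.34, 0.46 and 0.81 at 4 h, against -0.14, -0.14 and -0.46 unstimulated, and rose by 0.78 ± 0.42 (limma adjusted p = 0.0236). ARCN1 and the Golgi protein gene GOLGA3, at 1.01 ± 0.59, were the others. SPCS3, a signal peptidase subunit, had -0.99 and did not pass.

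Lysosomal genes gave 3 rises and 1 fall among 26, where 4.51% of all features rose and 5.89% fell. The proteases CTSD, CTSK and CTSC rose and NPC2, a cholesterol carrier of the lysosome, fell, with a list median of 0.08. CTSD had 0.20, 1.25 and 0.84 at 4 h with E. tenella, E. maxima and E. acervulina, against -0.41, -0.57 and -0.55 unstimulated. All 4 h values were above the unstimulated ones (change 1.27 ± 0.61, limma adjusted p = 0.0274). CTSK, known from bone-resorbing osteoclasts, changed by 0.93 ± 0.25 and CTSC by 0.92 ± 0.33.

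Of 12 subunits of the proton pump that acidifies lysosomes, ATP6V0D2 alone passed. Its levels were 0.06, 0.95 and 0.40 at 4 h, against -1.59, -1.16 and -0.67 unstimulated, a change of 1.61 ± 0.52 (limma adjusted p = 0.026). The arrays disagreed on it. With the dye effect of the other loops removed, the 3 arrays that held both RNAs gave 2.09, 3.34 and 1.85 with E. tenella, E. maxima and E. acervulina, while the path over the other 3 arrays of each loop gave 0.31, -1.56 and -1.26. SDC1, a cell surface heparan sulfate proteoglycan that changed by 1.29 ± 0.57, likewise had -0.41 over the other path with E. maxima, against 1.61 on the direct array.

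Lipid genes gave 2 rises and 3 falls among 26. FABP4, which carries fatty acids in the cytoplasm of macrophages and fat cells, had 4 h levels of 0.80, 0.71 and 0.04 with E. tenella, E. maxima and E. acervulina, against -1.24, -2.27 and -1.79 unstimulated. The levels lay well apart, and the change was 2.28 ± 0.61 (limma adjusted p = 0.0236). DEGS1, the last enzyme of ceramide synthesis, changed by 1.31 ± 0.49. Its size depended on the route once the dye effect of the other loops was removed, though the sign did not. For E. maxima the array that held both RNAs gave 1.80 and the path over the other arrays 0.19. The same pair was 2.30 and 0.09 for E. acervulina, and 0.62 and 1.22 for E. tenella. DBI, which binds acyl-CoA, fell by 0.93, ALOX5AP, which leukotriene synthesis needs, by 0.85 and NPC2 by 0.52.

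The RNA-binding list gave 4 rises and 1 fall among 35 genes, with a median of 0.09. That median was -0.01 with E. tenella, -0.05 with E. maxima and 0.28 with E. acervulina, so the list as a whole had no shared shift. SYNCRIP, which binds and stabilises messenger RNAs, had levels of 0.52, 0.65 and 0.66 at 4 h, against -0.51, -0.60 and -0.81 unstimulated. It rose by 1.25 ± 0.22 (limma adjusted p = 0.0096). PUM2, a repressor of translation, had the smallest spread between species of the called genes named here. Its changes were 0.92, 0.90 and 0.92 with E. tenella, E. maxima and E. acervulina (limma adjusted p = 0.0096). The routes behind these values were less even. With the dye effect of the other loops removed, the arrays that held both RNAs gave 0.73, 0.89 and 1.09. The path over the other arrays gave 1.49, 0.96 and 0.41. LARP4B changed by 1.0 ± 0.45, and the helicase gene DDX5, covered by 4 clones, by 0.89 ± 0.21. YBX1, a cold shock domain protein, fell by 0.70. Outside this list THOC2, a subunit of the complex that exports messenger RNA, rose by 1.05 ± 0.31 and the stress granule gene G3BP2 by 0.63 ± 0.06.

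**Figure D2:**
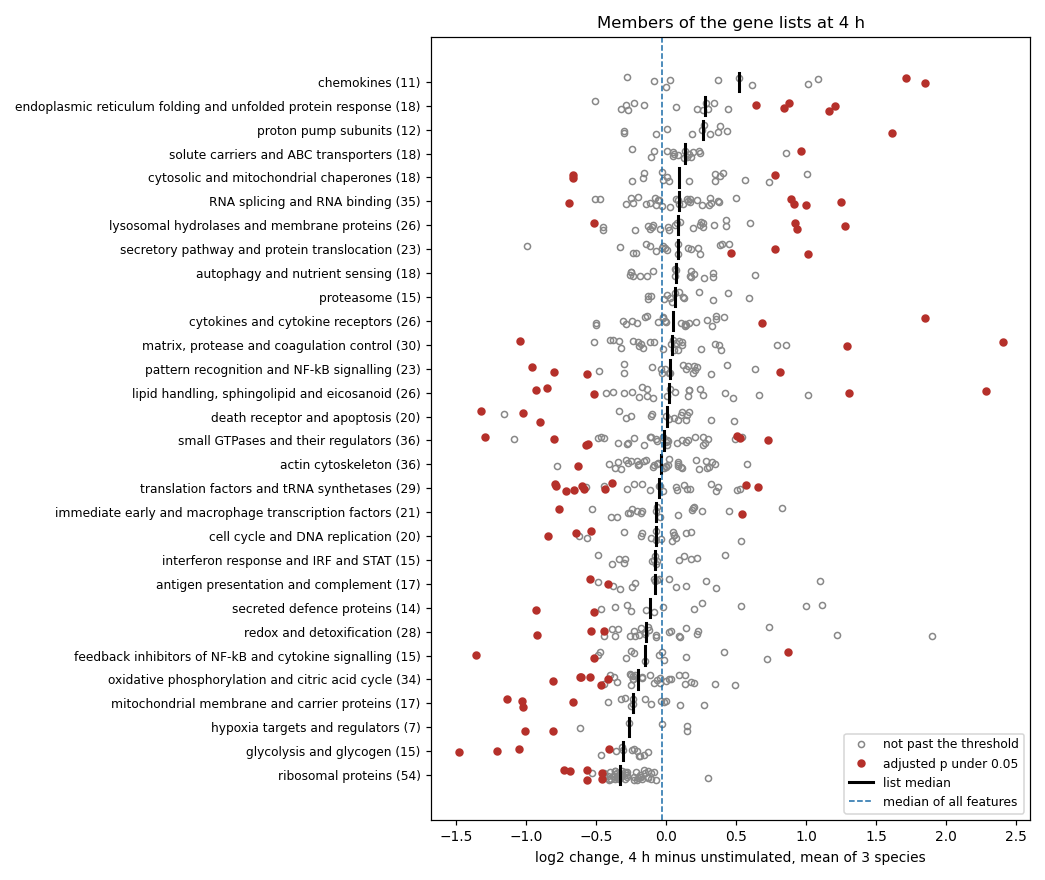
Mean log2 change of 3 species at 4 h minus unstimulated (x axis) for the members of the 30 process lists (y axis, with the number measured), each point being 1 gene. Red points passed the test, black bars are list medians and the dashed line is the median of all features at -0.03. All 15 glycolysis and glycogen genes and 53 of 54 ribosomal protein genes lie below 0.

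Glycolysis and glycogen genes lay on the lower side throughout. Of 15 measured all had a negative mean change, 4 fell and 0 rose, with a median of -0.31. ENO1, the glycolytic enzyme enolase, had 4 h levels of -0.31, -0.73 and -1.13 with E. tenella, E. maxima and E. acervulina, against 0.64, 0.88 and 0.77 unstimulated. The groups were far apart, and ENO1 fell by 1.48, with an SD of 0.49 (limma adjusted p = 0.0096), the largest fall among the named genes that passed. GBE1, the glycogen branching enzyme, had -0.46, -0.66 and -0.59 at 4 h, against 0.71, 0.60 and 0.59 unstimulated, and its change was -1.21 ± 0.04 (limma adjusted p = 0.0248).

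PGAM1, phosphoglycerate mutase, changed by -1.05 ± 0.38 and TPI1, triose phosphate isomerase, by -0.41 ± 0.02. GAPDH had -0.46, HK1 -0.36 and LDHA -0.19, none past the test. The median was -0.27 with arrays centred, when 3 genes passed, and the means of all 15 stayed negative. Of 7 hypoxia genes NDRG1 and BNIP3 fell. NDRG1, a gene that low oxygen induces, had -1.15, -0.42 and -1.24 at 4 h, against 0.08, -0.16 and 0.31 unstimulated (change -1.01 ± 0.67, limma adjusted p = 0.0261). BNIP3, a mitochondrial protein of mitophagy, changed by -0.81 ± 0.24. HIF1A, the regulator itself, had 0.15 and did not pass.

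Mitochondrial genes gave falls and 0 rises in both lists. Of 34 genes of oxidative phosphorylation and the citric acid cycle 6 fell, with a median of -0.20. They were SDHD of complex II at -0.81 ± 0.10, the ATP synthase genes ATP5L at -0.61 ± 0.11 and ATP5J2 at -0.54 ± 0.05, COX6C of complex IV at -0.61 ± 0.33, the citrate cycle gene IDH2 at -0.47 ± 0.18 and NDUFS8 of complex I at -0.41 ± 0.21. Of 17 membrane and carrier genes 4 fell, with a median of -0.24. TSPO, the cholesterol translocator of the outer membrane, had 4 h levels of -0.41, -0.52 and -0.76 with E. tenella, E. maxima and E. acervulina, against 0.62, 0.54 and 0.56 unstimulated. It fell by 1.13, with an SD of 0.16 (limma adjusted p = 0.0084), the lowest p after SPP1. SFXN1, a serine carrier, changed by -1.03 ± 0.54, the nuclease gene EXOG by -1.02 ± 0.22 and COQ5, of ubiquinone synthesis, by -0.66 ± 0.05.

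Of 54 ribosomal protein genes 6 fell and 0 rose. The mean change was negative for 53 of them, with a list median of -0.33. By species the list median was -0.23 with E. tenella, -0.15 with E. maxima and -0.60 with E. acervulina, and without E. acervulina it was -0.19. RPL3 had -0.30, -0.28 and -0.66 at 4 h, against 0.21, 0.19 and 0.56 unstimulated, and its change was -0.73 ± 0.42 (limma adjusted p = 0.0244). RPL12 had -0.69 ± 0.33. RPL17, RPL39L, RPL38 and RPS15 passed with means between -0.57 and -0.46. The number that passed depended on the fit. With arrays centred 3 genes passed, with a median of -0.29. With the spread of the 3 differences alone and with the 3 direct arrays 0 passed. With a fit to the 12 arrays 22 did, but that fit treats arrays that share an RNA as independent. The cDNAs of ribosomal protein genes can resemble processed copies, and cross-hybridisation was not tested.

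Among 29 translation factor and tRNA synthetase genes 8 fell and 2 rose. The falls were the elongation factors EEF2, at -0.71 ± 0.18, EEF1B2, at -0.79 ± 0.30, and EEF1A1, at -0.39 ± 0.16, the initiation factors EIF2S3, EIF3H, EIF3E and EIF3L, between -0.79 and -0.44, and the release factor ETF1 at -0.59 ± 0.10. EIF5A2 rose by 0.66 ± 0.18 and AIMP2, a scaffold of tRNA synthetases, by 0.57 ± 0.27. With arrays centred, 3 genes rose and 3 fell, so the predominance of falls in this list depended on the centring. None of 15 proteasome genes passed, with a median of 0.06.

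Of 20 genes of death receptors and apoptosis 3 fell and 0 rose. TNFRSF10B, a receptor for the death ligand TRAIL, had 4 h levels of -0.30, -0.85 and -0.33, against 0.61, 1.04 and 0.85 unstimulated, and fell by 1.32, with an SD of 0.51 (limma adjusted p = 0.0096). NSMAF, which couples the TNF receptor to neutral sphingomyelinase, had -0.71, -1.19 and -0.71 at 4 h, against 0.36, 0.13 and -0.02 unstimulated (change -1.02 ± 0.32, limma adjusted p = 0.0166). PDCD4 changed by -0.90 ± 0.24, and FAS had -1.16 without passing.

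Among 36 small GTPases and their regulators 3 rose and 4 fell. ARHGAP15, which inactivates Rac, fell by 1.30 (SD 0.49) and RAC2, the Rac of blood cells that serves the NADPH oxidase, by 0.56 (SD 0.18). RASSF5 and RHOB were the other falls, and RAP1B, at 0.73 ± 0.14, RASSF2 and RAB32 the rises. Of 36 actin genes 1 passed, ARPC4, a subunit of the Arp2/3 complex, at -0.63 ± 0.23. Of 20 cell cycle genes 3 fell, the cyclins CCNB1, at -0.54 ± 0.25, and CCNB3, at -0.65 ± 0.29, and FAM72A.

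Of 17 macrophage markers with values CEBPB rose and LYZ and TLR2A fell, with a median of 0.07. LYZ, which encodes lysozyme, had -0.39, -0.45 and -0.65 at 4 h, against 0.37, 0.54 and 0.38 unstimulated, and fell by 0.93, with an SD of 0.15 (limma adjusted p = 0.0103). Markers of other cell types were few on the array, with 18 measured over 7 lists. One of them passed, the erythroid list's carbonic anhydrase gene CA2, which other cells also express, at 0.42 ± 0.07. The haemoglobin genes HBA1 and HBBA had -0.15 and -0.11. The part of other cells in the changes was not tested.

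The later samples show only for part of the changes whether they were early. Against 48 h, a contrast in which the unstimulated level does not enter, 264 features passed (7.14%). Of the named genes 92 were higher and 87 lower at 4 h. No array held the 4 h and the 48 h RNA together, so this contrast runs over arrays with the 18 h or the unstimulated RNA. Of the 93 genes that rose at 4 h, 30 were higher at 4 h than at 48 h, and of the 137 that fell, 44 were lower at 4 h than at 48 h. None of the 230 passed in the opposite direction. Both contrasts use the same 4 h RNA, which favours the same side, so this is a description. The contrast depends on every species, since 0 features passed without E. tenella or without E. acervulina and 11 without E. maxima (unadjusted p under 0.05 in 850, 588 and 746). Against 18 h only SPP1 passed, which is 0.027% of all features tested, and 494 features had an unadjusted p under 0.05. That contrast gave 40 features with arrays scaled to one spread, and 0 on leaving out any species.

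Levels in the order 0, 4, 18 and 48 h show the courses. SPP1 averaged a difference of 1.83 between 4 h and 18 h (limma adjusted p = 0.0259) and of 2.62 between 4 h and 48 h (limma adjusted p = 0.0011). Its 48 h levels of -0.89, -0.87 and -0.96 lay near the unstimulated ones. OSMR and LOC417536 stood 2.10 and 2.16 higher at 4 h than at 48 h (limma adjusted p = 0.0169 and 0.0236). With E. acervulina both genes had their highest level at 18 h, at 0.90 and 1.07, and with the other species at 4 h. HSP90B1 stood 1.27 and SEC61A1 0.82 above 48 h (limma adjusted p = 0.0236 for both).

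Other genes did not pass between 4 h and later times. FABP4 changed by 2.28 at 4 h, 2.47 at 18 h and 2.31 at 48 h, all against the same unstimulated RNA, and its difference of 4 h minus 48 h was -0.03 (limma adjusted p = 0.98). UGGT1 had 0.88, 0.91 and 0.92, LARP4B 1.0, 1.02 and 1.04, and ABCC4, a transporter of cyclic nucleotides and leukotrienes, 0.96, 1.03 and 0.97. For FABP4 and ABCC4 these means hide unlike courses. With E. tenella, E. maxima and E. acervulina FABP4 changed by 2.04, 2.98 and 1.83 at 4 h, and by 0.77, 3.66 and 2.51 at 48 h. ABCC4 changed by 0.48, 0.91 and 1.49 at 4 h, and by 1.24, 1.15 and 0.52 at 48 h.

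Falls had both courses too. NSMAF stood 1.28 lower at 4 h than at 48 h, CREM 1.03 lower, SFXN1 1.46 lower and NDRG1 1.57 lower (limma adjusted p = 0.0161, 0.0169, 0.018 and 0.0143). Their levels at 18 h and 48 h were above those at 4 h in all 3 species. TNFRSF10B had changes of -1.32, -1.07 and -0.94 at 4, 18 and 48 h, and TNIP3 -1.36, -1.11 and -1.18, and neither passed against 48 h. RGS1, a regulator of G protein signalling, did not pass against unstimulated cells but had the largest fall against 48 h, at -1.81 (limma adjusted p = 0.018).

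**Figure D3:**
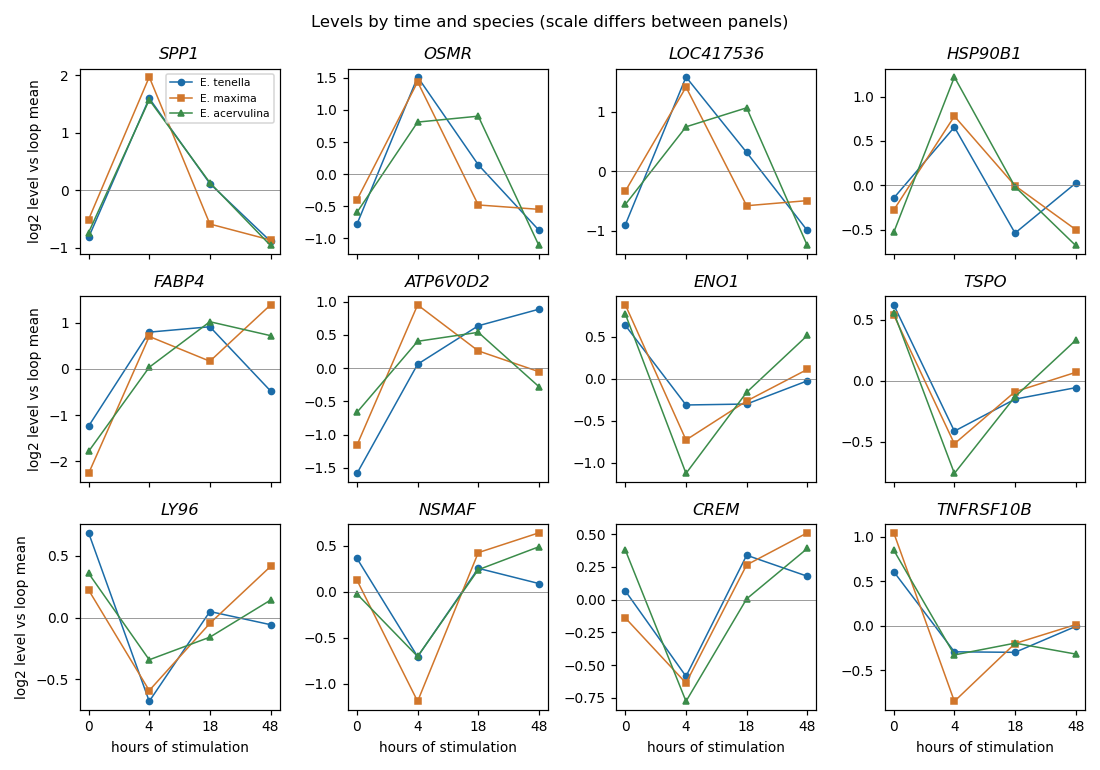
Log2 levels relative to the loop mean (y axis, with its own scale in each panel) at 0, 4, 18 and 48 h (x axis) for 12 genes, each line being 1 species with 1 RNA sample a time. SPP1 is highest at 4 h in all 3 species, while FABP4 has 18 h levels of 0.92, 0.17 and 1.03 with E. tenella, E. maxima and E. acervulina, all above the unstimulated ones.

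The species differed most for genes that did not pass in common. Such genes can hardly pass, since a wide range adds to the spread against which the common change is tested. The 10 named genes with the widest range of the 4 h change were chosen on that range, so their values are a description. HSPA2, an inducible chaperone of the HSP70 family, changed by -1.42 with E. tenella, 2.37 with E. maxima and 1.25 with E. acervulina. BAG3, a partner of HSP70, changed by -0.36, 2.26 and 1.11, and its 2 clones agreed in sign in every species. HMOX1, the stress-induced heme oxygenase, changed by -0.02, 2.39 and 1.28, and its 2 clones gave -0.23 and 0.18 with E. tenella. These genes were thus higher with E. maxima and E. acervulina and not with E. tenella.

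C1QC, a chain of complement C1q, changed by -0.01, 1.06 and 2.24, and RNASE6, an antimicrobial ribonuclease, by -0.25, 1.35 and 2.23. For each species the error of a 4 h change from the arrays alone, judged from how far a loop failed to close with the dye effect of the other loops removed, was 0.25 (E. tenella), 0.26 (E. maxima) and 0.24 (E. acervulina). It holds no culture error. The change came out alike by both routes for HSPA2, with -1.50, 2.31 and 1.28 on the direct arrays and -1.19, 2.52 and 1.17 over the other arrays, and for CMBL, a hydrolase, with 1.15, 1.25 and -1.28 against 1.14, 1.10 and -1.43. It did not for NOTCH1, RBP4A and C1QC, among others. NOTCH1 had -3.47 on the E. tenella array and -0.28 over the other route, and RBP4A had -3.58 on the E. maxima array and -0.13 over the other route. C1QC had 1.39 on the E. maxima array and 0.09 over the other route.

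**Figure D4:**
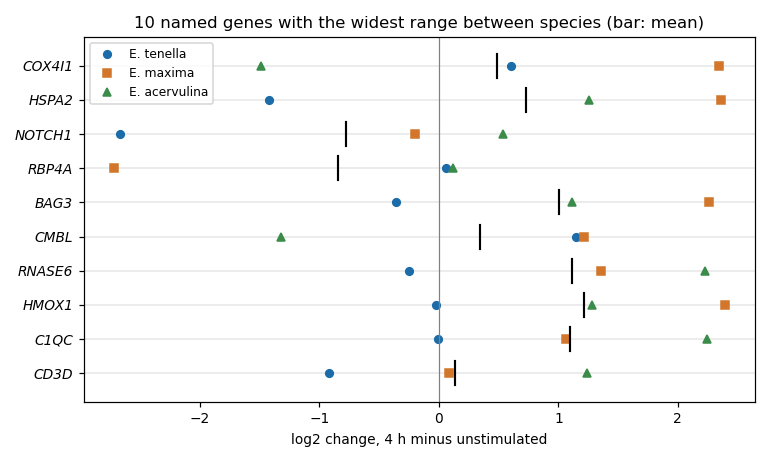
Log2 change at 4 h minus unstimulated (x axis) for the 10 named genes with the widest range between species, 1 point per species and a black bar at the mean. HSPA2, BAG3 and HMOX1 lie above 1 with E. maxima and E. acervulina. With E. tenella HSPA2 and BAG3 lie below 0 and HMOX1 lies close to 0.

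The same check over the called genes compared both routes in each loop. In 207 of the 230 called genes (90%) the direct array and the other route had the sign of the mean in all 3 species, with the dye effect of the other loops removed, as did 31.5% of all named genes. Without that removal it was 182 of the 230 (79.1%), against 23.4% of all named genes. ATP6V0D2, SDC1, UGGT1, EDEM1, GOLGA3, TLR2A, IDH2 and RAB32 were among the 23 others. The call used these same arrays. Across all features the direct and the indirect change correlated at 0.25, 0.05 and 0.27 in the E. tenella, E. maxima and E. acervulina loops, and at 0.22, 0.34 and 0.41 with the dye effect removed. The E. maxima loop thus closed less well before the removal, and whether its 4 arrays all run as labelled is not settled. These features share arrays and dyes. Of 48 called genes with more than 1 complete clone, 46 had all clones on one side. The call used the mean of these same clones, which disfavours genes whose clones disagree. The share over all named genes is not given, so this count is a description. The 2 exceptions, ALAS1 and CHST13, are named after their values were seen. ALAS1, the first enzyme of heme synthesis, had clones at -1.50 and 0.27, and CHST13, a sulfotransferase, had -0.95 and 0.08.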

How the data were processed

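The authors deposited 1 log ratio per spot and array, used here as log2 values with base 2 assumed. Their background correction, normalization and numerator remain not given in the sources used here. Array medians lay between -0.04 and 0.12, and no centring was added. Between 5.3% and 17.1% of 14718 rows were missing on an array. Each annotated clone has 3 spots, whose median SD within an array was 0.0741 to 0.171. Gene names came from the platform annotation of GEO, with 9066 rows of 1 symbol, 3 of several and 5649 of none, and were updated through RefSeq gene records for 8976 rows. Rows of a symbol were averaged.

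Levels were solved by least squares in each loop, which cancels a dye effect that is constant for a feature if the 4 arrays run the same way. They were fitted in limma 3.58.1 (R 4.3.3) with time as a factor and species as a block (6 residual degrees of freedom), two-sided, with Benjamini-Hochberg adjustment over 3700 features and a threshold of 0.05. The script was tested on simulated loops. No array counts or intensities were used, so the number of arrays limits the precision.

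Genes were named by rule. The rule took the 20 highest and 20 lowest called means, the 10 lowest p-values, the 10 widest ranges between species and the 5 nearest to SPP1. It also took called members of 30 process lists and 8 cell type lists, and genes passing against 18 h or 48 h. The text describes only part of them and leaves out CMKLR1, CLN8, TPD52, SKAP2, PAPSS1 and HSPE1, among others. Some lists are not described either. Of 18 cytosolic and mitochondrial chaperone genes 1 rose and 2 fell. Of 17 antigen presentation and complement genes 0 rose and 2 fell. The named members of a list that did not pass, IL8L1 among them, were chosen after their values were seen. List genes were matched by symbol or a RefSeq synonym. The comparison, the members and the lists were chosen with earlier results of these data known. A list of genes induced by Toll-like receptor ligands, kept as a check on the sign, had a median of 0.18, with 10 of 17 means positive and 7 negative. It is no independent check: its 2 called members are LOC417536 and LOC395551, the chemokine genes on which the direction partly rests.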

Additional observations from a re-analysis of the deposited data

How the results depend on the processing

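The 109 called genes counted here leave out those that the rule named only for passing against 18 h or 48 h. All 109 kept their sign in the 12 alternatives run on genes. This was mostly fixed beforehand. Robust moderation, the wider filter, the 3 differences alone, the fit to the 12 arrays and averaging unnamed rows leave a gene's estimate unchanged. Leaving out a species cannot turn a sign that all 3 share. The calls kept were 103 with the median of rows, 108 with robust moderation, 96 with arrays centred and 85 with arrays scaled. They were 73 with features of 3 arrays per loop admitted, 56 with the 3 direct arrays and 51 with the spread of the 3 differences alone. A fit to the 12 arrays kept 109, but it treats arrays that share an RNA as independent, which favours more calls. Averaging the unnamed rows in 3s, chosen after seeing the data, kept 109. Against 385 features called at 4 h (167 higher, 218 lower), the spread of the 3 differences alone gave 170 (79 higher, 91 lower), the fit to the arrays 742 (305 higher, 437 lower) and the 3 direct arrays 208 (120 higher, 88 lower). Arrays centred on their median gave 407 (231 higher, 176 lower). Leaving out 1 species gave 0 to 76 features (0 to 36 higher, 0 to 40 lower), and 0 to 29 of the 109 genes kept their call. The fewer samples widen the error, and the cause was otherwise not tested. Between 4 h and 18 h the 1 feature became 3 with arrays centred, 40 with arrays scaled and 0 to 0 without a species. Between 4 h and 48 h the 264 features became 0 to 11 without a species. Species was a block in the fits of levels, and the fit to the 3 differences alone pairs the RNAs within a species. Spots near background could not be told from others, since no intensities were analysed here.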

Other observations

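Some further genes with positive mean changes did not pass. GCLM, a subunit of the enzyme that limits glutathione synthesis, had a 4 h change of 1.89 ± 0.68 (SD, n = 3, limma adjusted p = 0.11), and TXNRD1, thioredoxin reductase, had 0.74 ± 0.63 (limma adjusted p = 0.34). PSMD6, a subunit of the proteasome lid, had 0.59. GCLM, TXNRD1 and PSMD6 were chosen after their values were seen. Their list of redox and detoxification genes, which holds the first 2, went the other way. Of 28 genes 0 rose and 3 fell, with 18 negative means and a median of -0.14. The falls were ADH4 at -0.93, ESD at -0.54 and PRDX3 at -0.44.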
